A study of Mus musculus with 12 samples.

Results

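Appetite and wakefulness are steered by peptides and hormones that act on hypothalamic cells, and the 10 genes described here encode receptors for them: Lepr, Insr, Mc3r, Mc4r, Cckbr, Npy1r, Mchr1, Hcrtr1, Hcrtr2 and Ghr. They were taken by symbol from the 48709 gene identifiers that were counted, and all 10 were present. Counts came from 12 RNA libraries of mouse C57BL/6 hypothalamic cells, 3 in each of 4 groups of sorted cells. mCherry-positive and mCherry-negative cells came from cultures given an adeno-associated virus whose mCherry marks cells with an active hypocretin (Hcrt, also called orexin) reporter. EGFP-positive and EGFP-negative cells came from cultures given a lentivirus whose EGFP marks cells with an active melanin-concentrating hormone (MCH, gene Pmch) reporter. All groups share their source, hypothalami of embryonic day 18. They also share the virus dose, a multiplicity of infection of 10, and a week as floating neurospheres with basic fibroblast growth factor at 10 ng/ml before the sort. The virus and the amount of RNA taken into cDNA differed between the mCherry and the EGFP sort, so either of these and the reporter cannot be told apart when the sorts are set side by side. Nothing in the labels tells whether the replicates of a group were grown apart, so p-values measure only the spread between these libraries, which may be technical.

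The receptors fall into kinds that signal in different ways. Lepr, for leptin from fat, and Ghr, for growth hormone, are cytokine receptors that act through the kinase Jak2 and STAT factors, while Insr, for insulin, is a receptor tyrosine kinase. The others are G protein-coupled receptors: Mc3r and Mc4r bind melanocortins cut from the Pomc precursor and are blocked by Agrp, Cckbr binds cholecystokinin and gastrin, Npy1r binds neuropeptide Y, Mchr1 binds MCH, and Hcrtr1 and Hcrtr2 bind the hypocretins. In the hypothalamus leptin, insulin and melanocortins restrain feeding, neuropeptide Y and MCH promote it, and hypocretins sustain wakefulness.

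For Cckbr and Ghr every reporter-positive library stood above every reporter-negative library in both sorts, and for that reason the DNA upstream of their starts is shown. Libraries did not overlap, in either direction, for 25.8% of all genes in the mCherry sort and 35.5% in the EGFP sort. The share of genes without overlap in both sorts was not counted. The RefSeq promoter table on GRCm38.p6 held 8 of the 10 receptors, and each sequence is the 250 bases before a RefSeq start that hold no exon of the GENCODE M21 annotation. Capitals mark matches, on either strand, to any of 7 motifs: the letters TATAAA for a core promoter box, GGGCGG for the GC box, TGACGTCA for the cyclic AMP response element, TTCNNNGAA for a STAT site, CANNTG for the E-box, TTGGCA for an NFI site and ACAAAG for a SOX core. The Cckbr window is chr7:105425481-105425730 on the plus strand and the Ghr window is chr15:3581843-3582092 on the minus strand.
Cckbr: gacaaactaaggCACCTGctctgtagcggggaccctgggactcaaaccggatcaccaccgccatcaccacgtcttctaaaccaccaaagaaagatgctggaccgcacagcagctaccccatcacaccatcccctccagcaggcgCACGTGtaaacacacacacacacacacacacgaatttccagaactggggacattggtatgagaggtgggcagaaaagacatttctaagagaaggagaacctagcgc
Ghr: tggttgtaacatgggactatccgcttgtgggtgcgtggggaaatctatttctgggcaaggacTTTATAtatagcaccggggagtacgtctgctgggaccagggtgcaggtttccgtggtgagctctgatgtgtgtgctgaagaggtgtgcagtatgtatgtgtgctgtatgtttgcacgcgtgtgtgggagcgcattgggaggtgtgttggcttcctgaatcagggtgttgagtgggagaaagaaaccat
Both matches in the Cckbr window are E-boxes, beginning 238 and 106 bases before the start and not overlapping each other. E-boxes occur in 66.2% of the 32526 RefSeq windows of this length. The match in the Ghr window is TATAAA read on the opposite strand, 188 bases before the start, a motif found in 12.3% of all windows. No motif of the 7 was found in both of these windows, which says nothing of other stretches of DNA. The window of another Ghr start overlaps annotated exon sequence and is not shown. It held 1 E-box, beginning 169 bases before that start, and 2 GC boxes, a motif found in 33.0% of all windows.

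Libraries held 16.3 to 32.9 M reads in genes, so that 1 read was worth 0.0304 to 0.0614 CPM (reads of a gene per 1 M reads in genes) and the upper limit for a count of 0, 3 reads, was 0.0912 to 0.184 CPM. These limits and all intervals below cover counting error only, since reads carried no molecular identifiers. Levels below are CPM scaled by TMM factors over all 12 libraries. The culture was labelled neuronal. All 12 listed neuron markers had reads in every group, but their summed level, 1009 to 2527 CPM over all libraries, lay below that of 12 astrocyte and tanycyte markers, 5088 to 22156 CPM. The lists hold different genes and were not scaled for length, so these sums do not give shares of cells. Pituitary markers, summed over 13 genes led by Pomc, stood at 9.72 CPM in mCherry-positive replicate 1, against 2273 and 5122 CPM in replicates 2 and 3. Microglia markers in the same libraries summed to 923 CPM in replicate 1, against 121 and 127 CPM. In mCherry-negative cells pituitary markers stood at 7.48 CPM in replicate 1, against 225 and 177 CPM in replicates 2 and 3. In such sorted bulk samples, fewer cells of a type and less RNA per cell cannot be told apart.

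Per kb of all annotated exons of a gene, Cckbr stood first of the 10 receptors in both reporter-positive groups, Npy1r first in mCherry-negative cells and Insr first in EGFP-negative cells. In mCherry-positive cells Cckbr had 4.42 ± 1.86 CPM per kb of exon (SD, n = 3), followed by Ghr at 2.81 ± 0.845 and Insr at 2.08 ± 0.129 CPM per kb. In mCherry-negative cells Npy1r had 2.35 ± 0.777 CPM per kb and Insr 2.31 ± 0.603 CPM per kb, and Cckbr came sixth at 0.833 ± 0.0751 CPM per kb (SD, n = 3). In EGFP-positive cells Cckbr had 6.08 ± 0.536 CPM per kb, above Ghr at 2.42 ± 0.592 and Insr at 1.61 ± 0.220 CPM per kb (SD, n = 3). In EGFP-negative cells Insr had 3.35 ± 0.521 CPM per kb, and Cckbr came second at 1.52 ± 0.444 CPM per kb (SD, n = 3). The libraries of Cckbr, Ghr, Insr and Npy1r did not overlap between neighbours in that order in EGFP-positive cells. Most other neighbours were not separated: 8 of 9 neighbouring receptors overlapped in mCherry-positive cells, 7 in mCherry-negative cells, 5 in EGFP-positive cells and 6 in EGFP-negative cells. Hcrtr2, Mc3r and Lepr held the last 3 places in every group, at 0.00304 to 0.308 CPM per kb on average. The order depended on the length used, and 9 of 40 places changed with the longest transcript of each gene. Ghr then led mCherry-positive cells at 6.09 CPM per kb with Cckbr second at 4.92, and Insr led mCherry-negative cells at 3.39 CPM per kb with Npy1r in place 3 at 2.70. Hcrtr2 then ranked seventh in mCherry-positive cells, above Mc4r. Cckbr kept the first place in EGFP-positive cells and Insr in EGFP-negative cells, where Cckbr came in place 3. The plot of receptors by level per exonic length shows the order.

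**Figure D1:**
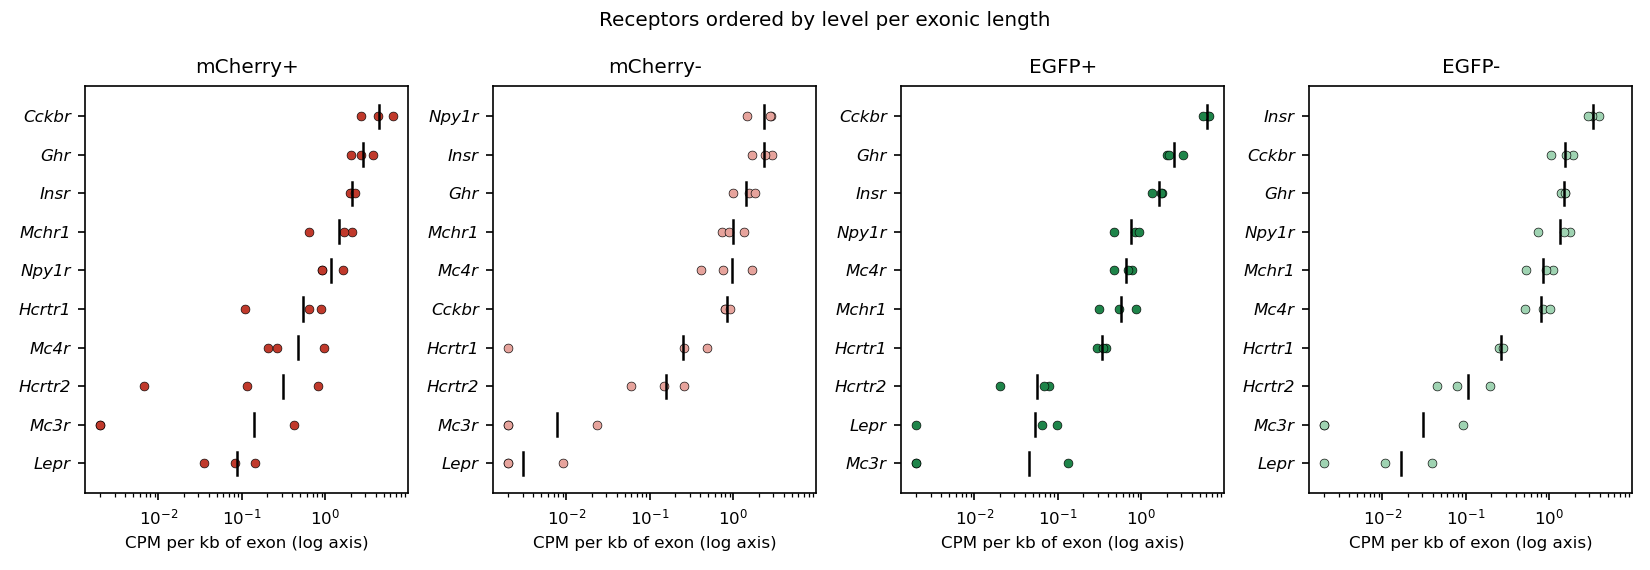
Level of each receptor per exonic length (CPM per kb, log axis) in the 4 groups, with a point for each of 3 libraries and a bar at the mean; libraries without reads are drawn at the left edge. Cckbr leads both positive groups at 4.42 and 6.08 CPM per kb and is sixth in mCherry-negative and second in EGFP-negative cells; with longest-transcript lengths, not plotted, Ghr leads mCherry-positive cells.

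Cckbr, the main cholecystokinin receptor of the brain (ENSMUSG00000030898, GRCm38 chromosome 7, 105425731 to 105470898, plus strand), was higher in reporter-positive cells of both sorts. In replicate order it had 18.2, 7.62 and 12.1 CPM in mCherry-positive cells, against 2.25, 2.27 and 2.63 CPM in mCherry-negative cells. In the other sort it had 17.9, 18.6 and 15.7 CPM in EGFP-positive cells, against 5.52, 4.57 and 3.01 CPM in EGFP-negative cells. Every positive library lay above every negative library of its sort, and the 4 groups had their smallest SD, 0.215 CPM, in mCherry-negative cells. In edgeR's quasi-likelihood test the log2 fold change was 2.42 ± 0.40 (SE, adjusted p 0.0349) for mCherry and 1.96 ± 0.23 (SE, adjusted p 9.34e-04) for EGFP. The 2 effects differed by 0.42 ± 0.44 (SE) on the log2 scale, mCherry minus EGFP (adjusted p 0.704). Leaving out any 1 of the 6 mCherry-sort libraries ended the mCherry call, with adjusted p of 0.0513 to 0.169 and log2 fold changes of 2.05 to 2.68. The EGFP call held in all 13 alternatives, at log2 fold changes of 1.77 to 2.17.

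Ghr, the growth hormone receptor (ENSMUSG00000055737, GRCm38 chromosome 15, 3317760 to 3583492, minus strand), showed smaller differences in the same direction. It had 33.6, 18.5 and 24.1 CPM in mCherry-positive cells, against 13.7, 16.2 and 8.98 CPM in mCherry-negative cells. It had 18.6, 19.2 and 28.1 CPM in EGFP-positive cells, against 13.9, 12.4 and 13.9 CPM in EGFP-negative cells. The libraries of positive and negative cells did not overlap in either sort, though the lowest mCherry-positive and the highest mCherry-negative library lay close together. Its log2 fold change of 0.69 ± 0.20 (SE) in the EGFP sort passed edgeR's quasi-likelihood test (adjusted p 0.0404), and its 0.98 ± 0.31 (SE) in the mCherry sort did not (adjusted p 0.147). The difference between these effects was 0.26 ± 0.38 (SE, adjusted p 0.806). The EGFP call was lost on leaving out any 1 library of that sort other than EGFP-positive replicate 1 (adjusted p up to 0.154) and with all 12 samples in 1 fit (0.157), while the mCherry effect was called by DESeq2 (0.0333) and with all 12 samples in 1 fit (0.0393).

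Astrocyte and tanycyte markers moved alongside Cckbr and Ghr in both sorts. Their summed level over 12 genes was 9937 to 14210.1 CPM in mCherry-positive cells and 5088 to 9005 CPM in mCherry-negative cells, and 17766 to 22156 CPM in EGFP-positive cells and 9321 to 9617 CPM in EGFP-negative cells. Over all these genes 2 were called higher with mCherry, and 9 higher and 1 lower with EGFP. Of all genes 0.541% were called higher with mCherry, and 8.99% higher and 7.07% lower with EGFP. Those shares also stand beside the ependymal calls. Ependymal markers behaved alike, with 99.9 to 164 CPM in mCherry-positive cells, 38.1 to 71.3 CPM in mCherry-negative cells, 188 to 219 CPM in EGFP-positive and 99.96 to 116 CPM in EGFP-negative cells over 8 genes, of which 1 was called higher with mCherry and 6 with EGFP. Cell cycle markers, 10 genes, summed to 286 to 417 CPM in mCherry-positive and 792 to 1040 CPM in mCherry-negative cells. In the EGFP sort they lay closer, at 972 to 1072 CPM in EGFP-positive and 1100 to 1149 CPM in EGFP-negative cells. Of these genes 6 were called lower with mCherry, beside 0.656% of all genes, and 1 lower with EGFP, beside 7.07%. The part of these cells in the receptor differences was not tested. Over the 12 libraries a protein-coding gene of at least 5 CPM whose log2 level closely resembled that of Cckbr was Thrsp (Pearson r 0.957), a regulator of lipid synthesis. The genes closest to Ghr were Lztfl1 (0.966), a regulator of ciliary trafficking, and Angpt1 (0.955), an angiopoietin. Here and below such genes were picked for the highest r among 11338 candidates, so high values arise in part from the picking. The libraries share groups and sorts, so these values are descriptions.

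**Figure D2:**
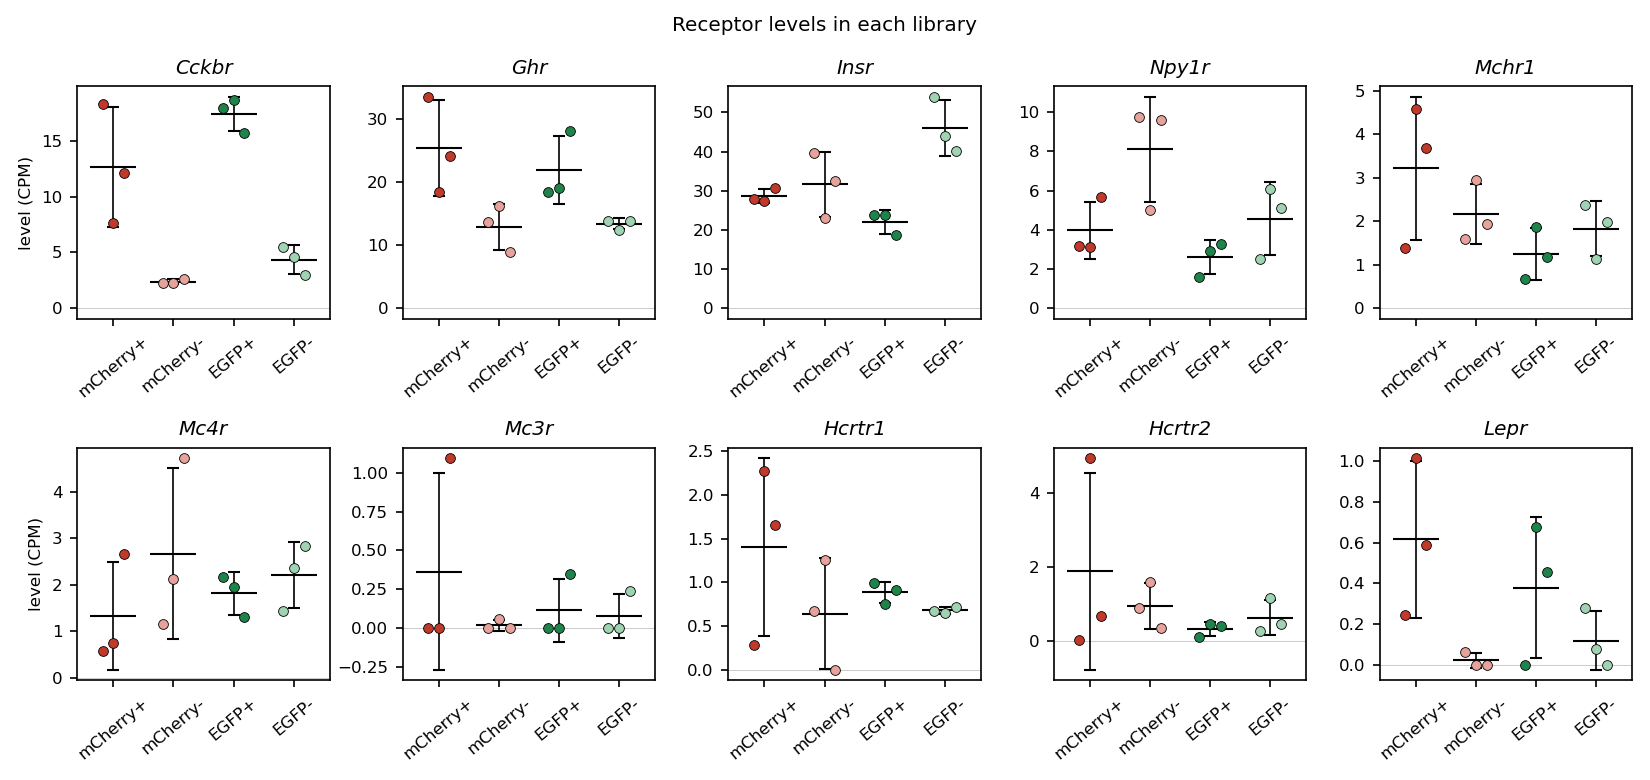
Level of each receptor (CPM, TMM-scaled) in the 12 libraries, grouped by sort with positive before negative cells, with points in replicate order and a bar with whiskers at the mean ± SD. Cckbr stands at 7.62 to 18.6 CPM in positive and at 2.25 to 5.52 CPM in negative libraries, and Insr is highest in the 3 EGFP-negative libraries.

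Insr (ENSMUSG00000005534, GRCm38 chromosome 8, 3122061 to 3279617, minus strand) fell in EGFP-positive cells. It had 23.9, 23.8 and 18.6 CPM in EGFP-positive cells, against 54.0, 44.1 and 40.1 CPM in EGFP-negative cells. It had 27.8, 27.4 and 30.7 CPM in mCherry-positive cells, against 39.6, 23.0 and 32.5 CPM in mCherry-negative cells. EGFP-positive and EGFP-negative libraries were well apart, whereas all mCherry-positive libraries lay within the range of the mCherry-negative ones. The log2 fold change in the EGFP sort was -1.08 ± 0.17 (SE; edgeR's quasi-likelihood test, adjusted p 0.00346), and the call held in all 13 alternatives. In the mCherry sort it was -0.14 ± 0.24 (SE, adjusted p 0.798). The difference between the sorts, 0.91 ± 0.29 (SE), did not pass in edgeR (adjusted p 0.146, unadjusted p 0.00738) and did in DESeq2 (0.0353). Oligodendrocyte markers, summed over 12 genes, stood at 2184 to 2234 CPM in EGFP-positive cells and 6304 to 6602 CPM in EGFP-negative cells. Neuron markers stood at 1009 to 1276 CPM in EGFP-positive cells and 1561 to 1573 CPM in EGFP-negative cells. Pituitary markers stood at 41.9 to 70.1 CPM in EGFP-positive cells and 358 to 463 CPM in EGFP-negative cells. Microglia markers stood at 40.3 to 42.4 CPM in EGFP-positive cells and 65.0 to 83.4 CPM in EGFP-negative cells. Mesenchymal and mural markers stood at 175 to 201 CPM in EGFP-positive cells and 469 to 499.6 CPM in EGFP-negative cells. Calls were lower for 11 of 12 oligodendrocyte, 8 of 12 neuron, 5 of 9 fitted pituitary, 8 of 10 microglia and 6 of 10 mesenchymal and mural markers, beside 7.07% of all genes. They were higher for 1 microglia marker, P2ry12, and 2 mesenchymal and mural markers. Their part in the Insr difference was not tested. The genes most like Insr over the 12 libraries were Rere (Pearson r 0.940), a transcriptional corepressor, and Chtf8 (0.931), a subunit of a clamp loader of DNA replication.

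Npy1r, the Gi-coupled receptor for neuropeptide Y (ENSMUSG00000036437, GRCm38 chromosome 8, 66697192 to 66706792, plus strand), had lower means in reporter-positive cells of both sorts without passing the test. It had 3.16, 3.14 and 5.66 CPM in mCherry-positive cells, against 9.72, 5.01 and 9.57 CPM in mCherry-negative cells. It had 1.61, 2.91 and 3.26 CPM in EGFP-positive cells, against 2.504, 6.09 and 5.11 CPM in EGFP-negative cells. In each sort 1 negative library fell within the range of the positive ones. Log2 fold changes were -1.01 ± 0.42 (SE) for mCherry and -0.81 ± 0.38 (SE) for EGFP, and edgeR's adjusted p was 0.241 and 0.191. Npy itself had 10.6 to 19.9 CPM in mCherry-positive cells and 16.9 to 91.5 CPM in mCherry-negative cells. It had 28.6 to 48.2 CPM in EGFP-positive cells and 40.2 to 55.0 CPM in EGFP-negative cells, and was called in neither sort.

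Mchr1, the MCH receptor (ENSMUSG00000050164, GRCm38 chromosome 15, 81235499 to 81238964, plus strand), did not follow its ligand. Pmch had 17.2, 19.1 and 18.9 CPM in EGFP-positive cells, against 3.93, 5.02 and 4.81 CPM in EGFP-negative cells, and at most 0.392 CPM in any mCherry-sort library. Mchr1 had 0.682, 1.87 and 1.19 CPM in EGFP-positive cells, against 2.38, 1.14 and 1.99 CPM in EGFP-negative cells. It had 1.39, 4.58 and 3.70 CPM in mCherry-positive cells, against 1.60, 2.95 and 1.95 CPM in mCherry-negative cells. Groups overlapped in both sorts. Its log2 fold change was -0.54 ± 0.46 (SE) with EGFP and 0.58 ± 0.57 (SE) with mCherry, and edgeR's adjusted p was 0.472 and 0.618. Between both kinds of positive cells, mCherry over EGFP, it was 1.36 ± 0.53 (SE; edgeR adjusted p 0.0943), and that p was 0.0291 without mCherry-positive replicate 1.

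The hypocretin receptors were low and uneven across libraries of the mCherry sort. Hcrtr1 (ENSMUSG00000028778, GRCm38 chromosome 4, 130130217 to 130139359, minus strand) had 7, 74 and 59 reads in mCherry-positive libraries, against 21, 41 and 0 reads in mCherry-negative libraries. It had 16, 19 and 26 reads in EGFP-positive libraries, against 17, 17 and 12 reads in EGFP-negative libraries. Hcrtr2 (ENSMUSG00000032360, GRCm38 chromosome 9, 76225880 to 76323856, minus strand) had 1, 161 and 25 reads in mCherry-positive libraries, against 28, 52 and 8 reads in mCherry-negative libraries. It had 2, 12 and 12 reads in EGFP-positive libraries, against 7, 31 and 8 reads in EGFP-negative libraries. The mCherry-positive replicates thus differed by 121 times in Hcrtr2 level, from 0.0410 CPM in replicate 1 to 4.95 CPM in replicate 2, and by 7.92 times in Hcrtr1 level. For Hcrtr2 the exact Poisson interval at 95% was 0.0253 to 5.57 reads in replicate 1 and 137 to 188 reads in replicate 2, so counting error did not span the gap. In the EGFP sort Hcrtr1 was steady, at 0.887 ± 0.120 CPM in EGFP-positive and 0.681 ± 0.0378 CPM in EGFP-negative cells (SD, n = 3). By edgeR's quasi-likelihood test the log2 fold changes of Hcrtr1 were 1.11 ± 1.17 (SE) for mCherry and 0.36 ± 0.43 (SE) for EGFP, with adjusted p of 0.647 and 0.627. Those of Hcrtr2 were 0.99 ± 1.19 (SE) and -0.89 ± 0.70 (SE), with adjusted p of 0.694 and 0.435, and the mCherry value was -1.32 without mCherry-positive replicate 2. Between both kinds of positive cells, mCherry over EGFP, Hcrtr2 gave 2.43 ± 1.14 (SE; edgeR adjusted p 0.156), and that p was 0.0386 without mCherry-positive replicate 1. Hcrt, their ligand gene, had 0 to 14 reads in any library.

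Mc4r, the melanocortin receptor best known for restraining food intake (ENSMUSG00000047259, GRCm38 chromosome 18, 66857704 to 66860506, minus strand), was present in all 12 libraries at 0.574 to 4.72 CPM. It had 0.574, 0.738 and 2.66 CPM in mCherry-positive cells, against 1.16, 2.12 and 4.72 CPM in mCherry-negative cells. It had 2.17, 1.95 and 1.30 CPM in EGFP-positive cells, against 1.43, 2.36 and 2.83 CPM in EGFP-negative cells. The groups overlapped in both sorts, with log2 fold changes of -0.98 ± 0.77 (SE) for mCherry and -0.31 ± 0.38 (SE) for EGFP and edgeR's adjusted p was 0.529 and 0.633. Mc3r (ENSMUSG00000038537, GRCm38 chromosome 2, 172248492 to 172251114, plus strand) had reads in 1 library of each group. Those were 39 reads in mCherry-positive replicate 3, against 2 reads in mCherry-negative replicate 2, and 10 reads in EGFP-positive replicate 3, against 4 reads in EGFP-negative replicate 3. It was too low for any fit, and the exact permutation test, 2-sided, gave p = 1.0 in each sort.

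Lepr, the leptin receptor (ENSMUSG00000057722, GRCm38 chromosome 4, 101717404 to 101815352, plus strand), was near the limit of detection. It had 6, 33 and 21 reads in mCherry-positive libraries, against 2, 0 and 0 reads in mCherry-negative libraries. It had 0, 17 and 13 reads in EGFP-positive libraries, against 7, 2 and 0 reads in EGFP-negative libraries. All mCherry-positive libraries lay above all mCherry-negative ones, while the EGFP groups overlapped. The ratio of summed rates was 28.5 for mCherry, with an exact binomial interval at 95% of 7.56 to 241, and 2.97 for EGFP, with 1.38 to 7.12, both over reads and not over replicates. Lepr did not pass the filter on low counts in either sort, and its exact permutation test, 2-sided, gave p = 0.1 for mCherry, the smallest that 3 against 3 allows, and p = 0.4 for EGFP. Lep, Ins1, Pyy and Ppy, genes of ligands made mainly outside the brain, had 0 reads in all 12 libraries. The insulin gene Ins2 had 1, 34 and 53 reads in mCherry-positive libraries, against 0, 2 and 0 reads in mCherry-negative libraries, and 2, 13 and 14 reads in EGFP-positive libraries, against 3, 0 and 0 reads in EGFP-negative libraries. Gh, the growth hormone gene that encodes the ligand of Ghr, had 2, 2391 and 5013 reads in mCherry-positive libraries, against 3, 22 and 1353 reads in mCherry-negative libraries. It had 242, 325 and 293 reads in EGFP-positive libraries, against 423, 393 and 243 reads in EGFP-negative libraries. Mouse Ins2 and Gh are mainly products of pancreas and pituitary, and mCherry-positive replicate 1 was low in both. Among mCherry-negative libraries Gh was lowest in replicate 1 too.

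**Figure D3:**
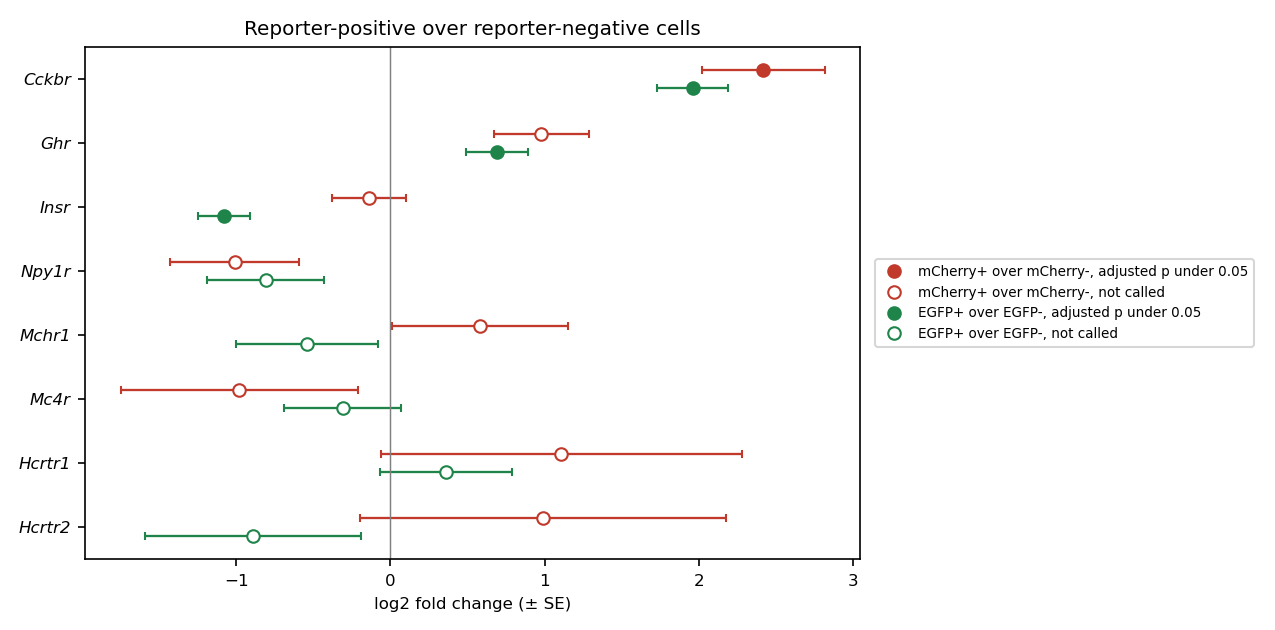
Log2 fold change of reporter-positive over reporter-negative cells for the 8 receptors that could be fitted, with whiskers of 1 SE; filled points passed edgeR's quasi-likelihood test at an adjusted p under 0.05 and open points did not. Cckbr lies at 2.42 for mCherry and 1.96 for EGFP, and Insr at -0.14 for mCherry and -1.08 for EGFP.

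Counted together, 8 of the 10 receptors passed the filter on low counts in each sort, and Lepr and Mc3r did not. In the mCherry sort 1 of the 8, Cckbr, was called higher and 0 lower by edgeR's quasi-likelihood test, against 1.2% of 17369 genes called, 0.541% higher and 0.656% lower. The libraries did not overlap for 2 of the 8, Cckbr and Ghr, against 25.8% of genes. In the EGFP sort 2 of the 8, Cckbr and Ghr, were called higher and 1, Insr, lower, against 16.1% of 16326 genes called, 8.99% higher and 7.07% lower. The libraries did not overlap for 4 of the 8, these 3 and Hcrtr1, against 35.5% of genes. The median log2 fold change of the fitted receptors was 0.78 with mCherry and -0.43 with EGFP, beside 0.02 and -0.01 over all genes. With counts this small, neither share sets the receptors apart from other genes.

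Between the sorts, no receptor was called by edgeR's quasi-likelihood test. For the difference of the effects 0 of 9 fitted receptors passed, 1 had an unadjusted p below 0.05, and DESeq2 called 1 and limma-voom 0. Over 18063 genes 1.44% were called, 0.886% higher and 0.559% lower. Of all genes 2737 had an unadjusted p below 0.05, DESeq2 called 894 and limma-voom 195. Of mCherry-positive over EGFP-positive cells 0 of 9 passed, 1 had an unadjusted p below 0.05, and DESeq2 and limma-voom called 0. There 17.6% of genes were called, 9.91% higher and 7.67% lower, and Insr was the receptor without overlap, against 35% of genes. Of all genes 5898 had an unadjusted p below 0.05, DESeq2 called 4118 and limma-voom 2979. Of mCherry-negative over EGFP-negative cells 0 of 9 passed, 2 had an unadjusted p below 0.05, and DESeq2 and limma-voom called 0. There 3.96% of genes were called, 2.67% higher and 1.29% lower, and Insr and Cckbr were without overlap, against 25.3% of genes. Of all genes 3027 had an unadjusted p below 0.05, DESeq2 called 1429 and limma-voom 705. On the log2 scale Insr gave 0.37 ± 0.21 (SE) between positive and -0.54 ± 0.21 (SE) between negative cells, and Cckbr gave -0.46 ± 0.30 (SE) and -0.88 ± 0.32 (SE). These contrasts reuse the libraries of the within-sort contrasts.

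Within the mCherry-positive group the receptors divided by library. Replicate 1 was the lowest of the 3 for Lepr, Mc4r, Mchr1, Hcrtr1 and Hcrtr2 and the highest for Cckbr and Ghr. Insr, Npy1r and Mc3r had it between or level with the others. Replicate 1 was also the library at 9.72 CPM of pituitary and 923 CPM of microglia markers, and had the lowest neuron marker sum of the group, 1244 CPM against 2527 and 2006 CPM. Its astrocyte and tanycyte marker sum was the highest, 14210 CPM against 9937 and 9972 CPM. So was its ependymal sum, 164 CPM against 101 and 99.9 CPM. The sums of mesenchymal and mural and of cell cycle markers were also highest in replicate 1. The low pituitary sum was shared by mCherry-negative replicate 1, at 7.48 CPM against 225 and 177 CPM in mCherry-negative replicates 2 and 3. Over all 12 libraries the closest receptors in log2 level were Cckbr and Ghr (Pearson r 0.783), and the most opposed were Cckbr and Npy1r (-0.732). The genes closest to the remaining receptors were Zfp810 for Npy1r (0.917), Tspyl3 for Mchr1 (0.89), Sh3kbp1 for Hcrtr1 (0.877), Cx3cl1 for Hcrtr2 (0.865), Pias4 for Mc4r (0.882) and Strip2 for Lepr (0.92), all over the same 12 libraries. Each was the highest of 11338 candidates, and Lepr and Hcrtr2 had as few as 0 and 1 reads in a library. The part of other cell types in this division was not tested.

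**Figure D4:**
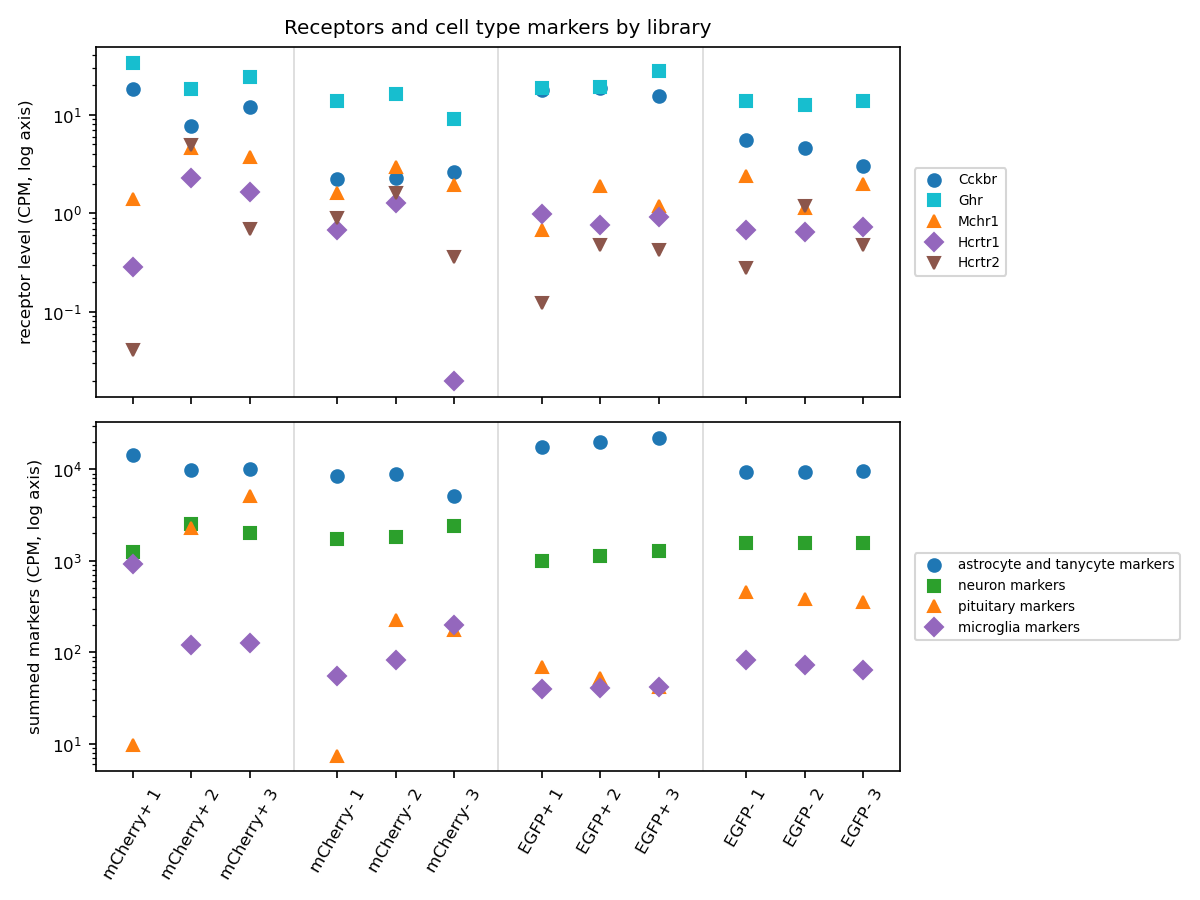
Levels of 5 receptors (top) and summed levels of 4 marker lists (bottom) in each library, both in CPM on a log axis, with the 4 groups parted by grey lines; the library without Hcrtr1 reads is drawn at the bottom edge. In mCherry-positive replicate 1 Cckbr and Ghr are at 18.2 and 33.6 CPM and pituitary markers at 9.72 CPM, against 2273 and 5122 CPM in replicates 2 and 3. Pituitary markers are at 7.48 CPM in mCherry-negative replicate 1, against 225 and 177 CPM in mCherry-negative replicates 2 and 3.

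Other genes of these pathways were read from lists by role. Of 32 related receptors, 22 could be fitted in the mCherry sort, where edgeR called 1 higher and 0 lower, DESeq2 4 higher and 0 lower, and limma-voom 0. Of all 17369 genes edgeR called 0.541% higher and 0.656% lower, while DESeq2 called 1476 genes and limma-voom 246. The edgeR call was Trhr, the receptor of thyrotropin-releasing hormone, with 420 reads in mCherry-positive and 2 in mCherry-negative libraries. Its ratio of rates was 199.8, with an exact binomial interval at 95% of 55.0 to 1655, over reads and not over replicates. With 2 reads in the negative libraries, Trhr passed the filter on low counts only through its mCherry-positive libraries. The adjusted p in edgeR's quasi-likelihood test was 0.0349. The call held in 7 of 13 alternatives, and was lost with limma-voom and without any 1 library of the sort other than mCherry-positive replicate 1 (adjusted p up to 0.17). In the EGFP sort 1 of 20 fitted rose and 3 fell by edgeR's quasi-likelihood test, beside 8.99% of all genes called higher and 7.07% lower. Ramp1, a partner protein of calcitonin-family receptors, rose to 302 ± 76.4 CPM in EGFP-positive cells, against 166 ± 11.99 CPM in EGFP-negative cells (SD, n = 3). The falls were Igf1r, the insulin-like growth factor receptor and nearest relative of Insr (20.96 ± 3.38 against 34.4 ± 1.06 CPM), the melanocortin receptor Mc5r (0.558 ± 0.324 against 2.10 ± 0.553 CPM) and the somatostatin receptor Sstr1 (1.23 ± 0.572 against 3.35 ± 0.589 CPM), each EGFP-positive against EGFP-negative (SD, n = 3). Over the fitted members of this list the median log2 fold change was 0.80 with mCherry and -0.49 with EGFP.

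Of 17 fitted genes of cytokine receptor signalling, 4 rose and 0 fell with EGFP by edgeR's quasi-likelihood test, beside 8.99% of all genes called higher and 7.07% lower, and the estimates were positive for 8 and negative for 8. Those that rose included Jak1 (254 ± 47.9 CPM in EGFP-positive and 156 ± 8.72 CPM in EGFP-negative cells), Stat3, the main leptin effector (462 ± 77.8 and 316 ± 17.96 CPM), and Socs3, the feedback inhibitor of leptin signalling (388 ± 43.1 and 244 ± 23.7 CPM; SD, n = 3). In the mCherry sort edgeR, DESeq2 and limma-voom called 0 of 17, and 2 had an unadjusted p below 0.05, beside 3233 of all 17369 genes. Socs3 stood at 205 ± 21.4 CPM in mCherry-positive and 262 ± 4.03 CPM in mCherry-negative cells (SD, n = 3), and its difference between the sorts passed edgeR's quasi-likelihood test (-1.03 ± 0.19 SE on the log2 scale, adjusted p 0.0211). It was the 1 gene of the 17 called for that difference, beside 1.44% of 18063 genes. The median log2 fold change of this list was -0.09 with mCherry and 0.00 with EGFP.

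Of 22 insulin signalling genes 1 rose and 2 fell with EGFP by edgeR, while DESeq2 called 3 higher and 4 lower and limma-voom 1 higher and 3 lower. The 3 edgeR calls stand beside 16.1% of all 16326 genes called, as do those of the next lists. DESeq2 called 3520 genes with EGFP and limma-voom 2753. The adaptor gene Irs4 rose (7.43 ± 0.773 CPM in EGFP-positive and 3.83 ± 0.919 CPM in EGFP-negative cells). Pik3r1, a regulatory subunit of phosphoinositide kinase, fell (126 ± 15.3 and 200 ± 2.01 CPM), and so did Tsc1, a brake on mTOR (33.4 ± 4.74 and 56.7 ± 3.68 CPM; SD, n = 3). In the mCherry sort edgeR called 0 of 22, 4 had an unadjusted p below 0.05, DESeq2 called 4 and limma-voom 0. Of all 17369 genes fitted there edgeR called 208, 3233 had such a p, DESeq2 called 1476 and limma-voom 246. These counts stand beside the mCherry counts of the next lists too. Of 8 fitted melanocortin accessory genes 1 rose and 2 fell with EGFP: Cpe, a carboxypeptidase that trims peptide hormones, rose (7003 ± 239 CPM in EGFP-positive and 3742 ± 303 CPM in EGFP-negative cells). Pcsk2, a prohormone convertase, fell (5.62 ± 0.902 and 13.5 ± 1.40 CPM), as did Sdc3, a syndecan (98.5 ± 10.8 and 178 ± 26.1 CPM; SD, n = 3). With mCherry edgeR called 0 of 8, 5 had an unadjusted p below 0.05, DESeq2 called 2 and limma-voom 0. Of 20 G protein signalling genes 1 rose with EGFP, the regulator Rgs4 (23.3 ± 3.75 and 12.7 ± 1.99 CPM), and 2 fell, the adenylyl cyclases Adcy5 (7.49 ± 2.00 and 15.2 ± 1.19 CPM) and Adcy1 (8.11 ± 1.82 and 14.9 ± 3.42 CPM), each in EGFP-positive and then EGFP-negative cells (SD, n = 3). With mCherry edgeR called 0 of 20, 4 had an unadjusted p below 0.05, DESeq2 called 3 and limma-voom 0. Median log2 fold changes with mCherry and with EGFP were 0.10 and -0.08 for insulin signalling, 0.74 and -0.26 for melanocortin accessory and 0.15 and -0.06 for G protein signalling genes. Over 13 alternatives the EGFP calls of Socs3, Tsc1, Sdc3 and Cpe held in all 13, those of Pik3r1 and Pcsk2 in 12, those of Jak1, Ramp1 and Adcy5 in 11, and those of Igf1r, Rgs4 and Adcy1 in 9. The calls of Stat3, Mc5r and Sstr1 held in 8 and that of Irs4 in 7, and most losses came with EGFP-positive replicate 2 or an EGFP-negative library left out. Of mCherry-positive over EGFP-positive cells 3 of 26 related receptors were called higher and 1 lower, 1 of 17 cytokine receptor signalling genes higher and 2 lower, 4 of 22 insulin signalling genes higher and 2 lower, 4 of 8 melanocortin accessory genes higher and 0 lower, and 10 of 20 G protein signalling genes higher and 1 lower. Over all genes 9.91% were called higher and 7.67% lower by the same edgeR test. Between negative cells, mCherry over EGFP, 0 of 26 related receptors were called. Called higher there were 1 of 17 cytokine receptor signalling, 3 of 22 insulin signalling, 1 of 8 melanocortin accessory and 4 of 20 G protein signalling genes. The last list had 1 called lower and the others 0, beside 2.67% of all genes higher and 1.29% lower. In both contrasts the sort, the virus and the RNA input cannot be told apart.

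Among 13 ligand genes, 6 could be fitted in the EGFP sort, and Pmch rose and Pomc fell by edgeR. Of all genes 8.99% were called higher and 7.07% lower there. Pomc, the source of melanocortins, had 21.1 to 39.4 CPM in EGFP-positive cells and 288 to 386 CPM in EGFP-negative cells. In the mCherry sort it had 3.94, 2050.0 and 3918 CPM in mCherry-positive cells, against 3.595, 193 and 87.3 CPM in mCherry-negative cells. There edgeR, DESeq2 and limma-voom called 0 of 5 fitted ligands. An unadjusted p below 0.05 was found for 1 of them, beside 3233 of all 17369 genes. Agrp, the blocker of melanocortin receptors, had 0.574, 0.984 and 3.05 CPM in mCherry-positive cells, against 0.802, 0.676 and 0.454 CPM in mCherry-negative cells. Cck, the ligand gene of Cckbr, had 0.615, 5.66 and 2.91 CPM in mCherry-positive cells, against 0.867, 1.69 and 2.18 CPM in mCherry-negative cells. It had 6.39, 7.13 and 4.98 CPM in EGFP-positive cells, against 10.2, 5.59 and 7.34 CPM in EGFP-negative cells. The ranges of Cck overlapped in both sorts, unlike those of its receptor.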

How the data were processed

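RNA from 12 libraries in 4 groups was measured as raw counts of reads for each Ensembl gene, as the authors deposited them. Per the submitters' processing notes the tools were cutadapt 1.8, STAR 2.5.2b and HTSeq 0.6.1 on GRCm38; settings, annotation release and strand setting are not given in the sources used here. No exon of the 10 receptors overlaps an exon of another gene in GENCODE M21, which gave symbols and positions for 48349 of 48709 identifiers. Entries that name no gene, 31.4% to 38.2% of counted reads, were left out.

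Each sort was fitted on its 6 libraries with edgeR 4.0.16 (R 4.3.3): TMM factors, filterByExpr (minimum count 10, minimum total 15), group as the only term, the quasi-likelihood test and Benjamini-Hochberg adjustment over all genes fitted, called under 0.05. Contrasts between sorts came from 1 fit of all 12 libraries. The SE was derived from the log2 fold change and the F statistic. The fits were tested on simulated data. Alternatives were RLE factors, no filter, at least 1 CPM in 3 libraries, DESeq2 1.42.0, limma-voom (limma 3.58.1), a replicate block, the other set of samples and each library left out. Receptors are always named; of other lists, called genes by smallest adjusted p, at most 4. The receptors and lists were chosen with earlier results of these data known. Some genes that the naming rule covers are not reported here.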

Additional observations from a re-analysis of the deposited data

Results flagged for a closer look

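The effect of the reporter on Socs3, which encodes the feedback inhibitor of leptin receptor signalling, differed between the sorts by -1.03 on the log2 scale, mCherry effect minus EGFP effect, by the test of the difference itself (edgeR's quasi-likelihood test, adjusted p 0.0211). All 3 mCherry-positive libraries lay below all mCherry-negative libraries, and all 3 EGFP-positive libraries above all EGFP-negative ones. Over the 18 alternatives the value ran between -1.11 and -0.91, and it was called in 13 of them. The 5 losses came on leaving out mCherry-negative replicate 2, EGFP-positive replicate 2 or any 1 EGFP-negative library, with adjusted p up to 0.0798. Socs3 was the 1 gene called among 17 fitted genes of its list, and the receptor, ligand and other pathway lists had 0. Over all 18063 genes 1.44% were called, so this single call does not set the lists apart. In this difference the reporter cannot be told apart from the virus or the RNA input.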

How the results depend on the processing

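Of the receptors, Cckbr and Insr kept their EGFP calls in all 13 alternatives run for that sort, and Cckbr lost its mCherry call whichever of the 6 libraries of that sort was left out. Counts that moved past 1.5 times were these. Genes called with mCherry numbered 208, against 778 without a filter, 316 with the stricter filter, 1476 with DESeq2, 1712 with all 12 samples in 1 fit and 0 to 212 with 1 library left out. They numbered 0 without mCherry-positive replicate 3, mCherry-negative replicate 1 or mCherry-negative replicate 2. Receptors called there numbered 1, against 2 with DESeq2 and with all 12 samples in 1 fit, and 0 to 0 with 1 library left out. Genes called with EGFP numbered 2622, against 801 with all 12 samples in 1 fit and 1137 to 5244 with 1 library left out. For the difference of the effects they numbered 261, against 675 without a filter, 894 with DESeq2 and 27 to 591 with 1 library left out, and receptors 0, against 1 with DESeq2. Between positive cells genes called numbered 3175, against 1607 to 3975, and receptors 0, against 0 to 2. Between negative cells genes called numbered 715, against 1429 with DESeq2 and 269 to 847 with 1 library left out. A fit with the replicate number as a block called 343 genes with mCherry and the same number of receptors, 1. Same-numbered positive and negative samples correlated at -0.019 to 0.126 in the mCherry sort and -0.005 to 0.114 in the EGFP sort. Differently numbered ones correlated at -0.137 to 0.126 and -0.101 to 0.078. These ranges overlap and cannot tell whether the numbers mark pairs. Pituitary markers were lowest in replicate 1 of both mCherry-sort groups, at 9.72 and 7.48 CPM. The labels name no pairs, so the main fits held no block.

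Signs turned for estimates that no test called. With mCherry, Hcrtr2 was -0.32 with limma-voom and -1.32 to 1.59 with 1 library left out, and Insr -0.31 to 0.05, likewise with 1 library left out, as are the ranges that follow. For the difference of the effects, Npy1r ran between -0.56 and 0.11 and Hcrtr2 between -0.45 and 2.46. Between positive cells Ghr ran between -0.04 and 0.44. Between negative cells Mc4r ran between -0.43 and 0.62, Mchr1 -0.07 and 0.47, Hcrtr1 -0.98 and 0.5, Hcrtr2 -0.06 and 1.34, and Ghr -0.26 and 0.15. The cause of these shifts was not tested. Of 40 levels per exonic length, 12 moved by more than 1 SD and 9 changed place when the longest transcript replaced the exon union. Depth limits Lepr, Mc3r and Hcrtr1, which each had 0 reads in some library, and Hcrtr2, which had 1 read in mCherry-positive replicate 1.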
